A study of Caenorhabditis elegans with 18 samples.

Results

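The 10 genes described here work in the germline stem cells, the meiotic entry pathway and the P granules of Caenorhabditis elegans: glp-1, gld-1, gld-2, gld-3, nos-3, fbf-1, fbf-2, glh-1, pgl-1 and pgl-3. They were taken from the deposited count table by the WormBase identifiers of these symbols; all 10 matched, among 20395 gene identifiers in all. RNA was sequenced from whole worms exposed for 4 h to 1.13 mM fenbendazole (FBZ), oxfendazole (OxBZ), albendazole (ABZ), mebendazole (MBZ) or thiabendazole (TBZ), or to the solvent DMSO alone. There were 3 libraries in each of the 6 groups, and replicates were numbered 1 to 3 except for TBZ, numbered 2 to 4. Every group, DMSO included, was the strain CB3474 with the allele ben-1(e1880) on chromosome III, and worms without that allele are not analysed here. The gene ben-1 encodes a beta-tubulin through which benzimidazoles act on C. elegans. Each library came from a large pool of worms grown from L1 larvae for about 70 h at 20 °C, which the growth protocol describes as adult and the source label as mixed larval stages. 1 OxBZ library, replicate 2, has a drug label that reads OxB and was placed by its title.

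In the C. elegans gonad, the somatic distal tip cell presents Notch ligands to the receptor GLP-1 on the nearest germ cells and so keeps them dividing as stem cells. The Pumilio-family proteins FBF-1 and FBF-2 act below GLP-1 and repress mRNAs that drive entry into meiosis, a step taken through parallel RNA regulators: GLD-1 with NOS-3, and the poly(A) polymerase GLD-2 with GLD-3. P granules are RNA and protein condensates on germ cell nuclei, and the Vasa-like helicase GLH-1 and the scaffold proteins PGL-1 and PGL-3 are core parts of them.

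The library totals ran from 57010263 to 67277284 counts, and the 10 genes had between 1520 (fbf-2) and 63261 (gld-1) counts in a library. All 10 passed the filter on low counts, which kept 17484 genes. Levels are given in CPM, a gene's count relative to its library's total after TMM scaling. TMM multiplies each total by a factor, on the assumption that most genes do not differ between libraries. Tests are edgeR's quasi-likelihood test with Benjamini-Hochberg adjustment over all 17484 genes at a threshold of 0.05. Oocyte, sperm and yolk genes were detected in every group; the summed level of the 6 yolk genes averaged between 28603 CPM (TBZ) and 59333 CPM (DMSO), with wide spreads inside groups (30973 to 81012 CPM in ABZ, 23003 to 78475 CPM in MBZ, 16016 to 45831 CPM in TBZ and 33360 to 82225 CPM in DMSO). Yolk genes are expressed by adult hermaphrodites. 2 libraries stood apart in sperm genes: the summed level of 59 sperm genes was 4328 CPM in ABZ replicate 2, against 509 and 900 CPM in the other ABZ libraries, and 4874 CPM in DMSO replicate 2, against 675 and 1200 CPM in the other DMSO libraries. In whole worms, fewer germ cells and less RNA per germ cell cannot be told apart.

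Per kilobase of exon, a scale that allows genes to be compared, gld-1 had the highest level of the 10 genes in DMSO, 388 ± 44.8 CPM per kb (SD, n = 3). The P granule genes followed, with 191 ± 22 for pgl-1, 134 ± 33.6 for glh-1 and 92.1 ± 18.5 CPM per kb for pgl-3 in DMSO. The genes gld-3 (82.1 ± 2.33), nos-3 (70.4 ± 4.4), glp-1 (57.5 ± 0.481) and gld-2 (38.9 ± 3.86 CPM per kb) lay below them in DMSO. The lowest 2 were fbf-1, at 19.6 ± 2.16, and fbf-2, at 14.6 ± 0.966 CPM per kb in DMSO. The lengths cover all annotated exons of each gene, and which transcripts were present was not examined, which bears on these ranks. The fbf genes are near-identical paralogs, so that how the counting split reads between them is uncertain, and their sum is given beside them below. How reads matching both genes were treated is not given in the sources used here, which bears on their levels, rank and sum. In CPM, 65.3% of the tested genes had a lower mean than fbf-2 and 99.2% a lower mean than gld-1.

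**Figure D1:**
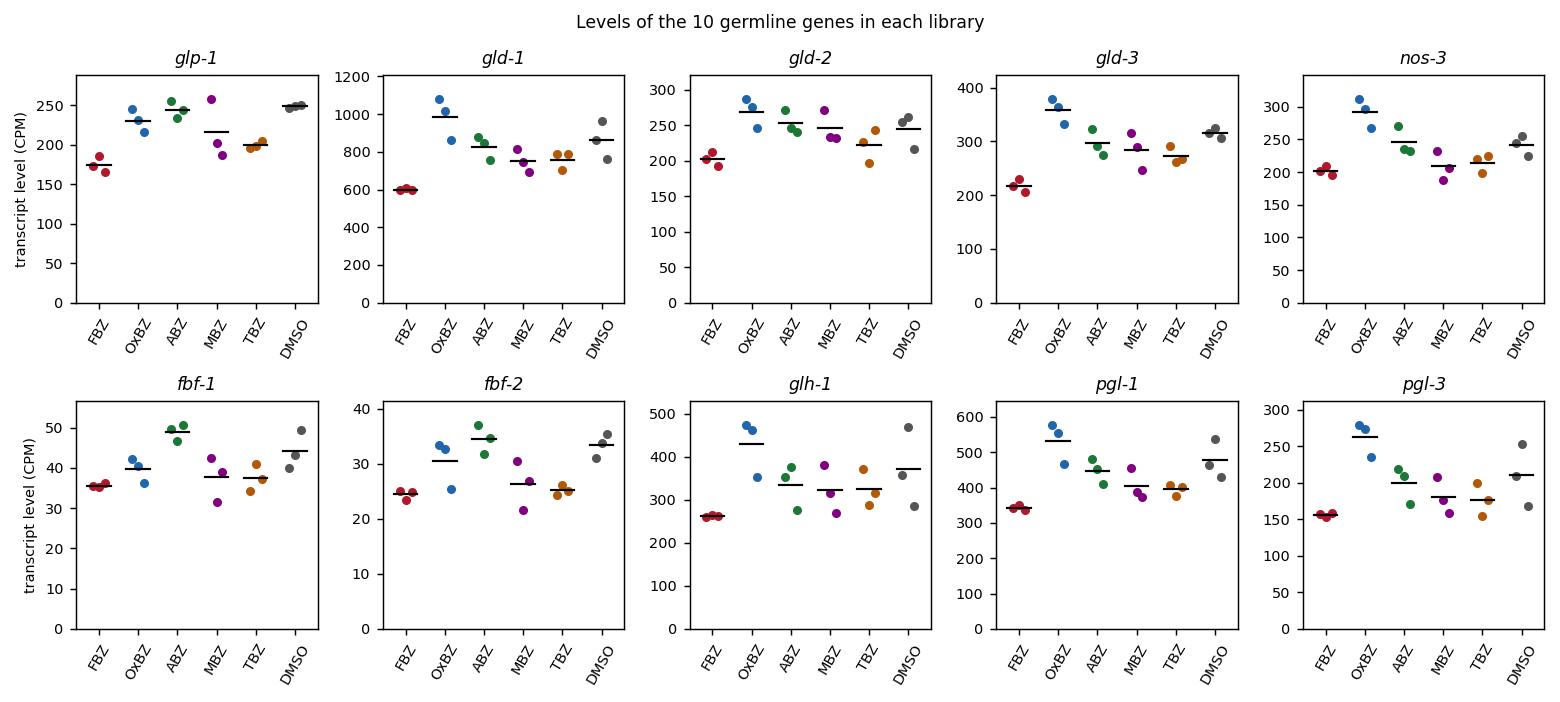
Level of each of the 10 genes (y axis, CPM, starting at 0) in each library (points) of the 6 groups (x axis), with a bar at the group mean. All 3 FBZ points lie below the 3 DMSO points for all 10 genes, while OxBZ has the highest group mean for the 7 genes other than glp-1, fbf-1 and fbf-2.

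All 10 genes were lower in FBZ worms than in DMSO worms. The level fell by 16.5% for nos-3, the smallest change, and fell by 30.9% for gld-3, the largest. For each of the 10 genes all 3 FBZ libraries lay below all 3 DMSO libraries. Across all tested genes, 27.4% were called lower and 24.3% higher under FBZ, and 32.6% had all FBZ libraries below all DMSO libraries. The median log2 change was -0.46 for the 10 genes and -0.01 for all tested genes. The count of 10 fell to 6 without DMSO replicate 2, to 5 without FBZ replicate 1 and to 5 without FBZ replicate 3. With libraries scaled by their totals alone it was 5, and all 10 changes stayed below 0 in each of the 27 alternatives run. Whether FBZ and DMSO worms came from the same cultures is not stated, so the drug and a difference between cultures cannot be told apart.

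The receptor gene glp-1 had 173, 186 and 166 CPM in FBZ libraries, against 247, 249 and 251 CPM in DMSO libraries. The DMSO values were tightly grouped and all FBZ values were below them. The log2 change was -0.51 ± 0.09 (SE; adjusted p = 0.000717, edgeR), which passed the threshold in all 27 alternatives.

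Among the meiotic entry regulators, gld-1, which encodes a KH-domain translational repressor, had 598, 607 and 595 CPM in FBZ libraries, against 861, 961 and 762 CPM in DMSO libraries. The FBZ libraries were nearly equal and the DMSO libraries spread, without overlap, and the log2 change was -0.52 ± 0.10 (adjusted p = 0.00089, edgeR). The gene gld-3, which encodes a KH-domain partner of the poly(A) polymerase, had 217, 231 and 206 CPM in FBZ libraries, against 315, 325 and 307 CPM in DMSO libraries. Both groups were tightly grouped and far apart, with a log2 change of -0.53 ± 0.09 and the lowest adjusted p of the 10 genes, 0.000364 (edgeR). Both genes passed the threshold in all 27 alternatives.

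The polymerase gene gld-2 and the Nanos-family gene nos-3 fell less. There were 203, 213 and 192 CPM of gld-2 in FBZ libraries, against 255, 262 and 217 CPM in DMSO libraries, and the highest FBZ library came within a few CPM of the lowest DMSO library. There were 202, 210 and 195 CPM of nos-3 in FBZ libraries, against 245, 255 and 225 CPM in DMSO libraries, again with all FBZ libraries lower. Their log2 changes were -0.27 ± 0.10 (adjusted p = 0.0306) for gld-2 and -0.26 ± 0.09 (adjusted p = 0.0225) for nos-3, by edgeR. The gld-2 call held in 20 and the nos-3 call in 22 of the 27 alternatives. Both were lost without FBZ replicate 1, FBZ replicate 3 or DMSO replicate 2, and that of gld-2 also without DMSO replicate 1.

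The stem cell regulator fbf-1 had 35.4, 35.2 and 36.2 CPM in FBZ libraries, against 40.0, 43.3 and 49.5 CPM in DMSO libraries. Its paralog fbf-2 had 25, 23.4 and 24.9 CPM in FBZ libraries, against 31.1, 33.7 and 35.5 CPM in DMSO libraries. Both had all FBZ libraries below all DMSO libraries, and the log2 changes were -0.31 ± 0.11 for fbf-1 (adjusted p = 0.0238) and -0.45 ± 0.12 for fbf-2 (adjusted p = 0.00633), by edgeR. The sum of the 2 genes does not depend on how reads were split between them, but may depend on whether reads matching both were kept. It averaged 60 ± 1.25 CPM in FBZ and 77.7 ± 7.01 CPM in DMSO (SD, n = 3 each). The fbf-2 call held in all 27 alternatives; the fbf-1 call held in 21 and was lost without any of FBZ replicates 1 to 3 or without DMSO replicate 3.

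Of the P granule genes, pgl-1 had 343, 351 and 336 CPM in FBZ libraries, against 463, 537 and 430 CPM in DMSO libraries. All FBZ libraries were lower, and the log2 change was -0.47 ± 0.10 (adjusted p = 0.0017, edgeR), called in all 27 alternatives. The helicase gene glh-1 had 259, 264 and 263 CPM in FBZ libraries, against 358, 470 and 286 CPM in DMSO libraries. The scaffold gene pgl-3 had 157, 154 and 159 CPM in FBZ libraries, against 209, 253 and 169 CPM in DMSO libraries. Both had nearly equal FBZ libraries and widely spread DMSO libraries, of which replicate 2 was the highest. The log2 changes were -0.50 ± 0.18 for glh-1 (adjusted p = 0.0306) and -0.43 ± 0.14 for pgl-3 (adjusted p = 0.0238), by edgeR. Each of these 2 calls held in 19 of 27 alternatives and was lost without any 1 FBZ library or without DMSO replicate 2. Without DMSO replicate 2 the log2 changes were -0.28 for glh-1 (adjusted p = 0.197) and -0.25 for pgl-3 (adjusted p = 0.147, edgeR). DMSO replicate 2, the library with the most sperm RNA in its group, had the highest DMSO level of 7 of the 10 genes, the exceptions being glp-1, fbf-1 and fbf-2.

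**Figure D2:**
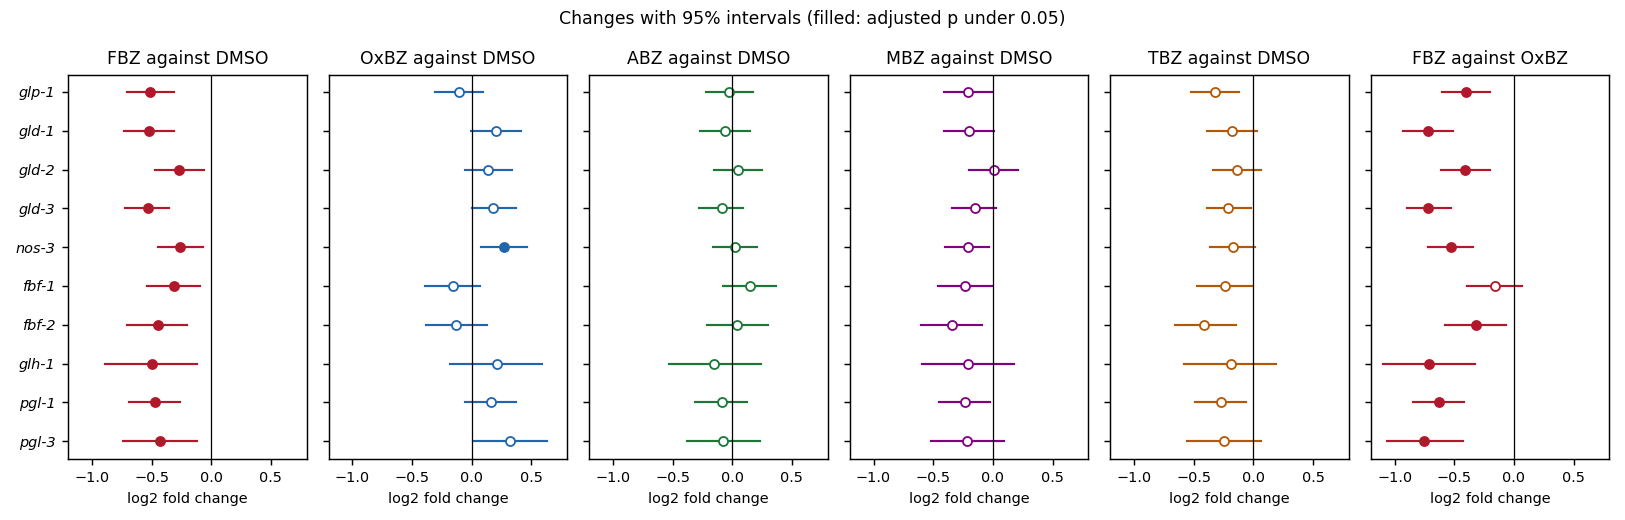
Log2 fold change (x axis) of each of the 10 genes (y axis) with its 95% interval in 6 comparisons, filled where edgeR's adjusted p was under 0.05. All 10 points are filled and below 0 for FBZ against DMSO, 9 are filled and below 0 for FBZ against OxBZ, and 1 (nos-3) is filled and above 0 for OxBZ against DMSO.

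OxBZ did not lower any of the 10 genes past the threshold by edgeR, and 1 was called higher. Across all tested genes 21.2% were called higher and 21.5% lower under OxBZ, and 26.4% had all OxBZ libraries above and 23.9% all OxBZ libraries below all DMSO libraries. An unadjusted p under 0.05 was reached by 2 of the 10 genes, and DESeq2 called 1 (nos-3) higher and 0 lower. With 1 library left out, 1 gene was called lower in each of 2 fits, glp-1 without MBZ replicate 1 and fbf-1 without DMSO replicate 1. The called gene, nos-3, had 312, 296 and 267 CPM in OxBZ libraries, against 245, 255 and 225 CPM in DMSO libraries. All OxBZ libraries were above all DMSO libraries, with a log2 change of 0.27 ± 0.09 (adjusted p = 0.0239, edgeR). That call was near the threshold: it held in 15 of 27 alternatives, and was lost without OxBZ replicate 1, OxBZ replicate 2, ABZ replicate 1, MBZ replicate 1, TBZ replicate 2 or any 1 DMSO library, when the adjusted p reached up to 0.229. The value 0.27 also became 0.15 without OxBZ replicate 1 and 0.18 without DMSO replicate 1.

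The remaining OxBZ changes did not pass the threshold, and the point estimates went both ways. The 95% intervals of the log2 change were -0.01 to 0.41 for gld-1, 0 to 0.37 for gld-3, 0.01 to 0.63 for pgl-3 and -0.31 to 0.09 for glp-1. Of the 10 point estimates 7 were above 0 and 3 (glp-1, fbf-1 and fbf-2) below, and these signs were the same in all 27 alternatives. The gld-3 libraries were 379, 364 and 332 CPM in OxBZ, against 315, 325 and 307 CPM in DMSO, all OxBZ libraries being higher. Those of glp-1 were 245, 231 and 216 CPM in OxBZ, against 247, 249 and 251 CPM in DMSO, all OxBZ libraries being lower. With replicate number as a block over all libraries, 4 of the 10 genes were called higher under OxBZ: nos-3, gld-1, gld-3 and pgl-3.

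FBZ and OxBZ differ by an oxygen on the sulfur atom, OxBZ being the sulfoxide of FBZ, and were compared directly at the same dose and time. Of the 10 genes 9 were lower in FBZ worms than in OxBZ worms, where 30.5% of all tested genes were called lower and 29.5% higher. In all 10 genes every FBZ library lay below every OxBZ library, against 38.8% of all tested genes. For fbf-1 this was nearly a tie, with FBZ replicate 3 and OxBZ replicate 3 both at 36.2 CPM after rounding. The log2 difference of fbf-1 ranged from -0.22 to 0.06 over the 25 alternatives, while the other 9 genes stayed below 0. The median log2 difference was -0.58 for the 10 genes and 0 for all tested genes.

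The widest difference in this pair was at pgl-3, with 157, 154 and 159 CPM in FBZ libraries, against 279, 274 and 235 CPM in OxBZ libraries. The groups were far apart, with a log2 difference of -0.75 ± 0.15 (adjusted p = 0.000539, edgeR). The levels of gld-1 were 598, 607 and 595 CPM in FBZ libraries, against 1080, 1018 and 863 CPM in OxBZ libraries, with a log2 difference of -0.72 ± 0.10 (adjusted p = 2.87e-05, edgeR). Those of gld-3 were 217, 231 and 206 CPM in FBZ libraries, against 379, 364 and 332 CPM in OxBZ libraries, with a log2 difference of -0.72 ± 0.09 (adjusted p = 9.73e-06, edgeR). In both, the lowest OxBZ library was more than 100 CPM above the highest FBZ library.

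The differences between FBZ and OxBZ were -0.71 for glh-1, -0.63 for pgl-1, -0.53 for nos-3, -0.41 for gld-2 and -0.40 for glp-1 on the log2 scale, with adjusted p from 9.7e-05 to 0.00368 (edgeR). The calls of these 5 genes and of pgl-3, gld-1 and gld-3 held in all 25 alternatives run for this pair. That of fbf-2 (-0.32 ± 0.12, adjusted p = 0.0299, edgeR) held in 12 of 25; it was lost without any 1 FBZ library, OxBZ replicate 1 or 2, ABZ replicate 1, MBZ replicate 1, TBZ replicate 2 or DMSO replicate 1 or 2. For fbf-1 the difference was -0.16, with a 95% interval of -0.39 to 0.07 and an adjusted p of 0.215 (edgeR), and it was called in 0 of 25 alternatives. The sum of fbf-1 and fbf-2 averaged 60 ± 1.25 CPM in FBZ and 70.3 ± 7.47 CPM in OxBZ (SD, n = 3 each).

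None of the 10 genes was called under ABZ, MBZ or TBZ against DMSO by edgeR. For ABZ, where 1.6% of all tested genes were called higher and 0.606% lower, the 10 log2 changes lay between -0.15 and 0.15, 0 of the 10 had an unadjusted p under 0.05, and DESeq2 called 0. The 95% intervals of the 10 genes reached at most down to -0.53 (glh-1) and up to 0.37 (fbf-1). These values come from the fit without pairing by replicate number, and the paired fit also called 0 of the 10 genes. The levels of nos-3, for example, were 270, 235 and 232 CPM in ABZ libraries, against 245, 255 and 225 CPM in DMSO libraries, whose ranges overlapped. The log2 difference was 0.02 with a 95% interval of -0.16 to 0.21.

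For MBZ, where 1.25% of all tested genes were called higher and 0.235% lower, 9 of the 10 estimates were below 0, with a median of -0.21 and an all-gene median of 0.01. The median of the 10 genes lay between -0.39 (without MBZ replicate 1) and -0.11 (library totals alone) in the 27 alternatives, and was -0.14 without MBZ replicate 3. An unadjusted p under 0.05 was reached by 5 of the 10 genes, and DESeq2 called 1 (fbf-2, adjusted p = 0.0476). MBZ replicate 1 had the highest MBZ level of all 10 genes; for glp-1 the libraries were 258, 202 and 187 CPM in MBZ, against 247, 249 and 251 CPM in DMSO. The summed level of the 6 yolk genes was 78475, 46750 and 23003 CPM and that of 15 oocyte genes 7414, 6326 and 5628 CPM in MBZ replicates 1, 2 and 3, and their part in the differences between these libraries was not tested. Without MBZ replicate 1, 4 of the 10 genes were called lower by edgeR: glp-1, nos-3, fbf-2 and pgl-1. Without DMSO replicate 1, 2 were called lower, fbf-1 and fbf-2.

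For TBZ, where 3.06% of all tested genes were called higher and 3.17% lower, all 10 estimates were below 0, with a median of -0.22 and an all-gene median of 0.01. In the 27 alternatives the median of the 10 genes lay between -0.29 and -0.05 (library totals alone), and 7 of the 10 estimates were below 0 in all of them. All TBZ libraries lay below all DMSO libraries in 5 of the 10 genes (glp-1, gld-3, nos-3, fbf-2 and pgl-1), against 10.7% of all tested genes. The levels of glp-1 were 196, 198 and 205 CPM in TBZ libraries, against 247, 249 and 251 CPM in DMSO libraries. That change, -0.32 on the log2 scale with a 95% interval of -0.52 to -0.12, had an adjusted p of 0.0563 (edgeR), just outside the threshold. The change of fbf-2 was -0.41, with a 95% interval of -0.66 to -0.15 and an adjusted p of 0.0596 (edgeR). At an unadjusted p under 0.05 there were 5 of the 10 genes, and DESeq2 called 2, glp-1 (adjusted p = 0.0134) and fbf-2 (adjusted p = 0.0119). With 1 library left out, glp-1 or fbf-2 or both were called lower without OxBZ replicate 1 or 3, ABZ replicate 1, any 1 MBZ library or DMSO replicate 1, and none of the 10 genes without any other library.

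The other drug pairs were also compared directly, 10 pairs in all, each adjusted over all tested genes. FBZ worms had lower levels of 8 of the 10 genes than ABZ worms, where 24% of all tested genes were called lower; FBZ carries a phenyl and ABZ a propyl group on the sulfur. The exceptions were glh-1 (95% interval of the log2 difference -0.74 to 0.03) and pgl-3 (-0.66 to -0.04, adjusted p = 0.0631, edgeR). All FBZ libraries lay below all ABZ libraries in all 10 genes, against 30.4% of all tested genes. The largest difference was at fbf-2, -0.50 ± 0.12 (adjusted p = 0.0049, edgeR), with 25, 23.4 and 24.9 CPM in FBZ libraries, against 37, 31.7 and 34.7 CPM in ABZ libraries. Between 6 and 10 genes were called lower in the 25 alternatives.

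FBZ worms had lower levels of 4 genes than MBZ worms (glp-1, gld-1, gld-2 and gld-3), with 15% of all tested genes called lower, but the count was between 0 and 5 in the alternatives. It was 0 without MBZ replicate 1, 1 (gld-3) without FBZ replicate 1 or 3, OxBZ replicate 1, ABZ replicate 1, TBZ replicate 2 or DMSO replicate 1, and 2 without FBZ replicate 2, MBZ replicate 2 or DMSO replicate 2. FBZ worms had lower levels of 2 genes than TBZ worms, gld-1 (-0.34 ± 0.10, adjusted p = 0.0166) and gld-3 (-0.32 ± 0.09, adjusted p = 0.0107, edgeR), with 19.6% of all tested genes called lower; 1 was called without FBZ replicate 3 or without TBZ replicate 4. The 95% interval of the FBZ and TBZ difference was -0.39 to 0.01 for glp-1 and -0.30 to 0.21 for fbf-2.

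OxBZ worms had higher levels of 5 genes than MBZ worms (gld-1, gld-3, nos-3, pgl-1 and pgl-3; 22.3% of all tested genes were called higher and 20.1% lower) and of 6 genes than TBZ worms (the same 5 and gld-2; 22.9% called higher). The median of all tested genes was itself -0.14 for OxBZ against MBZ and -0.10 for OxBZ against TBZ. These counts lay between 5 and 7 for MBZ and between 4 and 8 for TBZ in the 25 alternatives. At nos-3 there were 312, 296 and 267 CPM in OxBZ libraries, against 232, 188 and 206 CPM in MBZ libraries, a log2 difference of 0.48 ± 0.09 (adjusted p = 0.000604, edgeR). No MBZ library reached the lowest OxBZ library.

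OxBZ against ABZ gave 4 genes called higher (gld-1, gld-3, nos-3 and pgl-3; 21.4% of all tested genes) and 1 called lower (fbf-1; 22%). These counts ranged from 0 to 6 and from 0 to 1 in the alternatives. For this pair the count of higher genes was 0 without OxBZ replicate 1 or 2, without ABZ replicate 2 or 3, without TBZ replicate 2 or without DMSO replicate 1, 1 without MBZ replicate 1 or DMSO replicate 2, and 2 without any 1 FBZ library, ABZ replicate 1, MBZ replicate 2 or TBZ replicate 4. The fbf-1 call was lost without OxBZ replicate 2 or 3 or ABZ replicate 3; its libraries were 42.3, 40.5 and 36.2 CPM in OxBZ, against 49.7, 46.6 and 50.6 CPM in ABZ, without overlap.

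Of the 3 drugs for which edgeR called none of the 10 genes against DMSO, ABZ and TBZ differed at fbf-1 (0.38 ± 0.11, adjusted p = 0.0462) and fbf-2 (0.45 ± 0.12, adjusted p = 0.0367, edgeR), where 3.94% of all tested genes were called higher and 2.4% lower in ABZ. The 2 calls rested on the choice of libraries, with between 0 and 3 genes called in the 25 alternatives and 0 without any 1 FBZ library, any 1 TBZ library, ABZ replicate 1 or ABZ replicate 3, and 1 (fbf-2) without OxBZ replicate 1, OxBZ replicate 2 or ABZ replicate 2. ABZ against MBZ gave no call by edgeR (0.0744% of all tested genes were called higher, 0.132% lower), with an unadjusted p under 0.05 for 3 of the 10 genes and 1 call by DESeq2 (fbf-1). Without MBZ replicate 1, 3 were higher in ABZ by edgeR (glp-1, fbf-1 and fbf-2). The largest difference was at fbf-2, 0.39 with a 95% interval of 0.13 to 0.64. MBZ against TBZ gave no call either (2.19% and 1.26% called higher and lower) and 0 genes with an unadjusted p under 0.05 or a call by DESeq2; the 95% intervals of all 10 genes lay within -0.40 and 0.37.

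Over the 6 groups together, all 10 genes differed by edgeR's test for any difference, as did 69.5% of all tested genes, with adjusted p from 0.000196 (gld-3) to 0.0437 (glh-1). FBZ had the lowest mean of all 10 genes. OxBZ had the highest mean of 7 genes, ABZ of both fbf genes and DMSO of glp-1. For glp-1 the order of means, low to high, was FBZ at 175 ± 10.5, TBZ at 200 ± 4.67, MBZ at 215 ± 37.5, OxBZ at 231 ± 14.2, ABZ at 245 ± 11.1 and DMSO at 249 ± 2.08 CPM (SD, n = 3 each), and no 2 neighbours in that order differed past the threshold. Neighbouring groups differed at 3 genes only: FBZ from MBZ at gld-1, FBZ from TBZ at gld-3, and OxBZ from ABZ at nos-3. For the other 7 genes no neighbours in the order of means differed past the threshold.

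Across the libraries, the fbf genes tracked each other more closely than they tracked the other 8 genes. They are near-identical paralogs, and the part of shared or misassigned reads in this likeness was not tested. The Pearson correlation of log2 CPM over the 18 libraries, given as a description since these share the 6 treatments and the scaling, was 0.924 between fbf-1 and fbf-2. Over the 28 pairs of the other 8 genes it lay between 0.632 and 0.979, with a median of 0.872. Over the 16 pairs of an fbf gene with one of those 8 it lay between 0.191 and 0.838, with a median of 0.49. After the group means were removed the same measure was 0.881 for the fbf pair, 0.429 to 0.975 for the 28 pairs and -0.184 to 0.605 for the 16 pairs. The closest pair of the 10 genes was gld-1 with pgl-1, at 0.979.

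**Figure D3:**
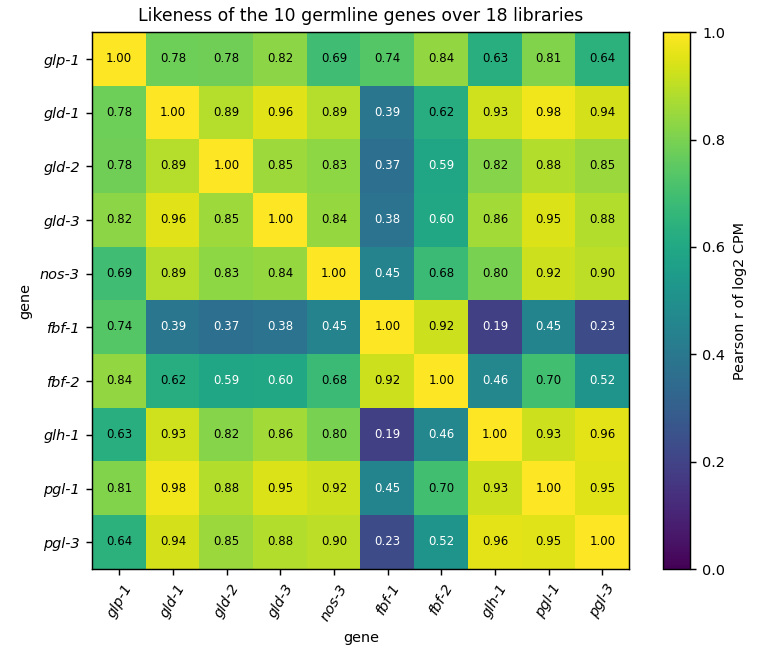
Pearson correlation of log2 CPM over the 18 libraries (colour scale, 0 to 1) for each pair of the 10 genes (both axes). The fbf-1 row is bright at fbf-2 (0.924) and darkest at glh-1 (0.191), while gld-1, glh-1, pgl-1 and pgl-3 form bright cells with one another.

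Outside the 10 genes, the gene with the most similar profile by this correlation over the 18 libraries was aka-1 for glp-1 (0.987), ztf-8 for gld-1 (0.985), F59E12.9 for gld-2 (0.958), usp-4 for gld-3 (0.987) and R05H10.3 for nos-3 (0.96). It was H20J04.4 for fbf-1 (0.905), set-24 for fbf-2 (0.931), F10E7.2 for glh-1 (0.965), coq-8 for pgl-1 (0.988) and glh-2, which encodes another Vasa-like helicase, for pgl-3 (0.977). For fbf-1 no tested gene exceeded the correlation with its paralog, in which the part of shared reads was not tested. For glp-1 there were 313 genes whose correlation exceeded that with its nearest partner among the 10, fbf-2 (0.838).

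Of the rest of the GLP-1/Notch pathway, 16 genes were listed and tested. The shares called over all tested genes were 24.3% higher and 27.4% lower under FBZ, and 21.2% and 21.5% under OxBZ. Under FBZ 1 was higher and 6 lower, with a median of -0.09; under OxBZ 5 were higher and 0 lower, with a median of 0.21; under ABZ, MBZ and TBZ none was called by edgeR, and DESeq2 called 3 lower under TBZ. The FBZ gene called higher was epn-1, an epsin endocytic adaptor, at 174 ± 2.94 CPM in FBZ and 124 ± 14.6 CPM in DMSO (log2 change 0.49, adjusted p = 0.000682, edgeR). It was also higher under OxBZ, at 178 ± 8.34 CPM in OxBZ and 124 ± 14.6 CPM in DMSO (0.52, adjusted p = 0.000432, edgeR). The ubiquitin ligase subunit sel-10 was at 157 ± 1.45 CPM in FBZ and 195 ± 3.87 CPM in DMSO (-0.32, adjusted p = 0.000541, edgeR), and aph-2, the nicastrin subunit of gamma-secretase, at 74.4 ± 0.288 CPM in OxBZ and 53.5 ± 4.65 CPM in DMSO (0.48, adjusted p = 0.000606, edgeR). With library totals alone the FBZ counts were 2 higher and 1 lower, and the OxBZ count higher was 8 without ABZ replicate 2 and 3 without DMSO replicate 2. That OxBZ count lay between 2 and 8 over the 27 alternatives, and 1 gene was called lower without DMSO replicate 2.

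The genes lst-1 and sygl-1 are the direct targets through which GLP-1 acts in stem cells. The gene lst-1, singled out after its values were seen, had 95.8, 92.7 and 94.9 CPM in FBZ libraries, against 111, 108 and 120 CPM in DMSO libraries, and 136, 143 and 136 CPM in OxBZ libraries, against the same DMSO libraries. FBZ libraries were all below and OxBZ libraries all above DMSO, with log2 changes of -0.26 ± 0.06 (adjusted p = 0.00173) and 0.29 ± 0.06 (adjusted p = 0.00107), and the direct FBZ against OxBZ difference was -0.55 ± 0.06 (adjusted p = 2.42e-06, edgeR). For lst-1, the FBZ change was -0.09 (adjusted p = 0.296) with library totals alone, and the OxBZ change 0.18 without DMSO replicate 1 (adjusted p = 0.0207) and 0.19 without DMSO replicate 2 (adjusted p = 0.0216, edgeR). The gene sygl-1 had 83.9, 77.1 and 83.1 CPM in FBZ libraries, against 131, 124 and 83.8 CPM in DMSO libraries, with a log2 change of -0.48 ± 0.17 (adjusted p = 0.0329, edgeR). DMSO replicate 3 was at the FBZ level, so that the ranges overlapped. The call held in 18 of 27 alternatives and was lost without any 1 FBZ library, DMSO replicate 1 or DMSO replicate 2. In OxBZ libraries sygl-1 had 121, 126 and 108 CPM, against the same 131, 124 and 83.8 CPM in DMSO libraries, with a log2 change of 0.06 ± 0.17 (adjusted p = 0.788, edgeR). The ligand gene lag-2, also chosen after its values were seen, averaged 1.15 ± 0.191 CPM in FBZ and 1.01 ± 0.532 CPM in DMSO and was not called (adjusted p = 0.658, edgeR). Another ligand gene, apx-1, chosen in the same way, averaged 85.3 ± 1.49 CPM in FBZ and 101 ± 4.61 CPM in DMSO and was called lower (-0.25, adjusted p = 0.00753, edgeR). The DNA-binding factor lag-1, chosen in the same way, averaged 116 ± 0.973 CPM in FBZ and 129 ± 9.08 CPM in DMSO (adjusted p = 0.0531, edgeR).

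In the other germline lists, all genes called under FBZ were lower. The shares over all tested genes were 27.4% lower and 24.3% higher under FBZ. Of 23 other germline RNA regulators 15 were lower and 0 higher (median -0.34), of 21 other P granule components 19 were lower and 0 higher (median -0.43), and of 25 meiotic chromosome genes all 25 were lower (median -0.37). Of 16 replication and mitotic cycle genes 10 were lower (median -0.21) and of 15 oocyte and maternal genes 12 were lower (median -0.31), with 0 higher in both. With library totals alone the counts lower were 12, 11, 14, 2 and 3 in the same order. Without DMSO replicate 2 they were 14, 17, 20, 13 and 7. The replication count was 6 without FBZ replicate 3 or DMSO replicate 3, and the oocyte count 7 without FBZ replicate 1 or 3. Among P granule components, the Argonaute csr-1 was at 262 ± 3.85 CPM in FBZ and 446 ± 44.3 CPM in DMSO (-0.77, adjusted p = 4.02e-05, edgeR), and meg-3, a disordered P granule protein, at 62.7 ± 2.11 CPM in FBZ and 87.8 ± 3.72 CPM in DMSO (-0.49, adjusted p = 0.00982, edgeR).

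Further FBZ changes of this kind were at the meiotic HORMA-domain gene htp-2, at 39.3 ± 0.963 CPM in FBZ and 55.7 ± 5.02 CPM in DMSO (-0.50, adjusted p = 0.000345, edgeR), and at the meiotic kinase gene chk-2, at 9.97 ± 0.163 CPM in FBZ and 14.4 ± 2.34 CPM in DMSO (-0.53, adjusted p = 0.0229, edgeR). The chk-2 call under FBZ held in 19 of 27 alternatives and was lost without any 1 FBZ library, DMSO replicate 1 or DMSO replicate 2. Cyclin E, cye-1, was at 138 ± 4.56 CPM in FBZ and 179 ± 7.25 CPM in DMSO (-0.37, adjusted p = 0.00137, edgeR). The eggshell chitin synthase chs-1 was at 289 ± 13.5 CPM in FBZ and 463 ± 12.8 CPM in DMSO (-0.68, adjusted p = 0.00171, edgeR). Among the RNA regulators, the CPEB homolog cpb-2 was at 0.797 ± 0.065 CPM in FBZ and 3.16, 21.4 and 4.64 CPM in DMSO replicates 1, 2 and 3. The log2 change was -3.61 (adjusted p = 0.00319), and -2.27 without DMSO replicate 2 (adjusted p = 0.0229, edgeR). The gene fog-3, which specifies the sperm fate, was at 0.545 ± 0.182 CPM in FBZ and 2.47, 6.94 and 3.57 CPM in DMSO replicates 1, 2 and 3 (-2.99, adjusted p = 0.00017; -2.46 without DMSO replicate 2, adjusted p = 0.000753, edgeR).

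Under OxBZ the same lists had more genes called higher than lower: 8 higher and 2 lower of the RNA regulators, 8 and 0 of the P granule components, 10 and 1 of the meiotic genes, 13 and 0 of the replication and cell cycle genes and 6 and 0 of the oocyte genes, with medians from 0.14 to 0.34. The shares over all tested genes were 21.2% higher and 21.5% lower under OxBZ. The replication list had at least 8 genes higher in the 27 alternatives, while the other 4 counts moved with single libraries and settings. For the RNA regulators, P granule components, meiotic genes and oocyte genes, in this order, they were 2, 1, 2 and 2 without OxBZ replicate 1, 2, 3, 3 and 2 without DMSO replicate 1, and 4, 5, 5 and 3 without ABZ replicate 1. For the RNA regulators, meiotic and oocyte genes they were 5, 4 and 3 without OxBZ replicate 2, 5, 4 and 3 without MBZ replicate 1, and 4, 6 and 3 without TBZ replicate 2; without DMSO replicate 2, 5 RNA regulators and 5 meiotic genes were higher, and without DMSO replicate 3, 3 oocyte genes. With OxBZ and DMSO libraries alone, 4 RNA regulators, 3 P granule components and 4 meiotic genes were higher, and with the replicate block in those libraries 0, 0, 0 and 1 of the 4 lists. With upper quartile scaling the 4 counts were 4, 5, 4 and 3. The germline helicase cgh-1 was at 2428 ± 200 CPM in OxBZ and 1888 ± 142 CPM in DMSO (0.36, adjusted p = 0.00275; 0.25 and not called without OxBZ replicate 1, edgeR), the RNA-binding protein gene car-1 at 1637 ± 141 CPM in OxBZ and 1176 ± 137 CPM in DMSO (0.48, adjusted p = 0.00104, edgeR), and the replicative helicase subunit mcm-7 at 574 ± 12.2 CPM in OxBZ and 420 ± 23.9 CPM in DMSO (0.45, adjusted p = 0.000354, edgeR). The kinase gene chk-2 went the other way, at 7.87 ± 0.101 CPM in OxBZ and 14.4 ± 2.34 CPM in DMSO (-0.88, adjusted p = 0.00186, edgeR). No gene of these 5 lists was called under ABZ, MBZ or TBZ by edgeR. In the order RNA regulators, P granule components, meiotic, replication and oocyte genes, DESeq2 called 2, 3, 0, 2 and 1 lower under MBZ and 1, 1, 2, 0 and 2 lower under TBZ, and 0 in each list under ABZ. Without MBZ replicate 1 edgeR called 8, 6, 6, 6 and 4 lower under MBZ, and without DMSO replicate 1 it called 4, 4, 5, 2 and 2. Under TBZ the highest such count was 5 P granule components without TBZ replicate 2.

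**Figure D4:**
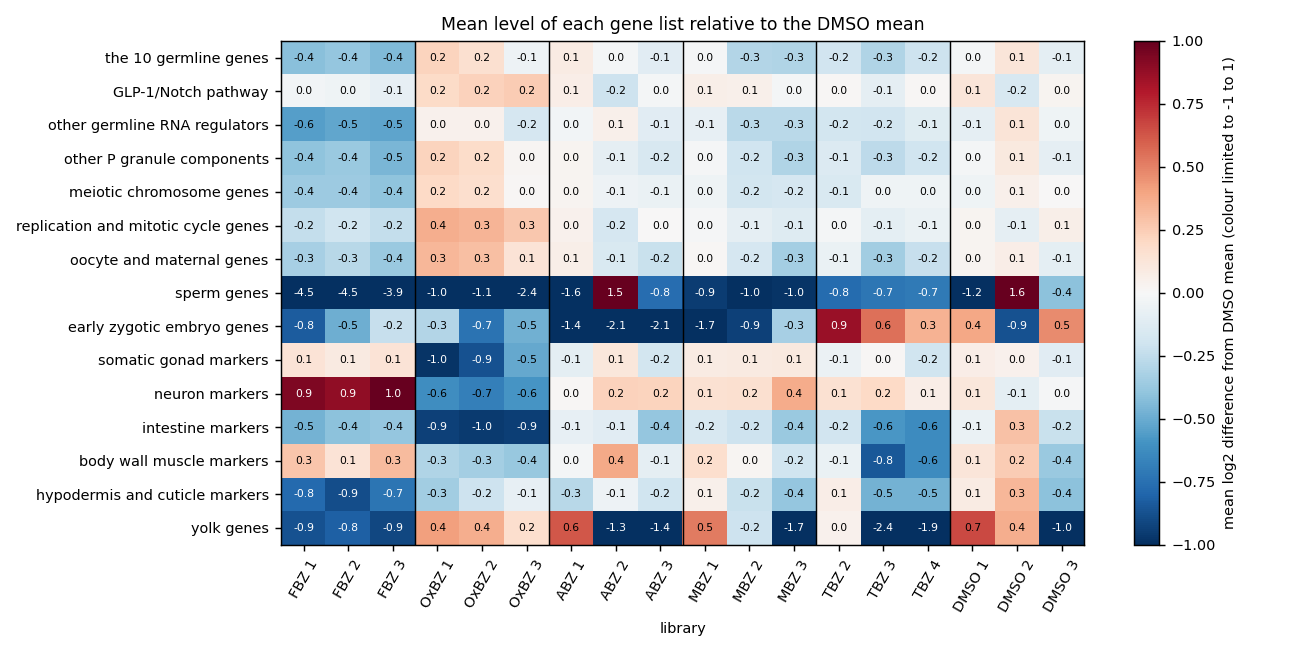
Mean log2 difference from the DMSO mean of each gene list (rows) in each of the 18 libraries (columns; colour limited to -1 to 1, number in each cell). The row of the 10 germline genes is at -0.4 in all 3 FBZ libraries; sperm genes are lowest in FBZ and highest in ABZ replicate 2 and DMSO replicate 2, and neuron markers are high in FBZ and low in OxBZ.

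Markers of other cells moved with the same treatments, and their part in the changes of the 10 genes was not tested. Of 59 sperm genes that passed the filter, of 63 listed, 58 were lower under FBZ (median -5.04) and 20 under OxBZ (median -1.83). The summed sperm level was 65.8 to 95.4 CPM in FBZ, 296 to 827 CPM in OxBZ and 675 to 4874 CPM in DMSO. Without DMSO replicate 2 the sperm counts lower were 55 under FBZ and 0 under OxBZ. The OxBZ sperm count was 0, 2 or 3 without 1 OxBZ library, 13 without any 1 FBZ library, MBZ replicate 2 or 3, or TBZ replicate 3 or 4, and 35 to 53 without ABZ replicate 1 or 2 or DMSO replicate 1 or 3. Of 13 neuron markers, of 14 listed, 11 were higher and 0 lower under FBZ (median 0.72), and 1 was higher and 11 lower under OxBZ (median -0.80). The summed neuron level was 1055 to 1110 CPM in FBZ, 563 to 598 CPM in OxBZ and 676 to 817 CPM in DMSO, so that neither drug overlapped DMSO.

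The lists of other cells were smaller, and their shares are to be read against the 24.3% of all tested genes called higher and 27.4% lower under FBZ, and 21.2% and 21.5% under OxBZ. These all-gene shares were 3.06% higher and 3.17% lower under TBZ, 1.6% and 0.606% under ABZ, and 1.25% and 0.235% under MBZ. Of 9 intestine markers 5 were lower under FBZ (3 without DMSO replicate 2), 6 lower and 1 higher under OxBZ, and 4 lower under TBZ (2 without DMSO replicate 2 or TBZ replicate 3, 1 without TBZ replicate 4); the 1 higher under OxBZ was lost without OxBZ replicate 1, DMSO replicate 1 or DMSO replicate 2. The summed intestine level was 3292 to 3453 CPM in FBZ, 1896 to 2187 CPM in OxBZ, 3443 to 4064 CPM in TBZ and 4705 to 6592 CPM in DMSO. Of 8 somatic gonad markers, which include the sheath cells around the germline, 2 were higher and 3 lower under FBZ and 3 lower under OxBZ (5 without TBZ replicate 2), shares close to those of all genes under FBZ. Of the 2 called higher under FBZ, the sheath cell factor ceh-18 was at 28.4 ± 2.58 CPM in FBZ and 15.8 ± 2.07 CPM in DMSO (0.85, adjusted p = 0.000275, edgeR). Of the 3 called lower, inx-9 was at 23.5 ± 0.62 CPM in FBZ and 37.7 ± 1.88 CPM in DMSO (-0.68, adjusted p = 0.00125, edgeR). Another of these, sth-1, was at 1.18 ± 0.0537 CPM in FBZ and 3.74 ± 1.86 CPM in DMSO (-1.66, adjusted p = 0.00204, edgeR). Its change was -1.16 without DMSO replicate 2.

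For 9 body wall muscle markers, 9 hypodermis and cuticle markers and 10 early zygotic embryo genes (of 11 listed), the counts called by edgeR changed with single libraries. They are to be read against the all-gene shares given above. Under FBZ 2 muscle markers were higher and 0 lower, 1 hypodermis marker was higher and 4 lower, and 1 embryo gene was higher and 3 lower. Without DMSO replicate 2 these counts were 1 and 0, 0 and 3, and 0 and 3. Over the 27 alternatives 1 to 3 muscle markers were higher and 0 to 1 lower, 0 to 2 hypodermis markers higher and 1 to 4 lower, and 0 to 2 embryo genes higher and 1 to 3 lower. Under OxBZ 2 muscle markers were lower (0 to 3 over the alternatives, and 1 without DMSO replicate 2), 1 hypodermis marker was higher (0 to 1, and 0 without DMSO replicate 2), and 2 embryo genes were higher (2 in all alternatives) and 3 lower (0 to 4). The fits without 1 FBZ or OxBZ library lie in these ranges; without FBZ replicate 1 or 2, 1 embryo gene was lower, without any 1 FBZ library 1 muscle marker was higher, and without any 1 OxBZ library 0 hypodermis markers were higher and 1 muscle marker was lower. Under ABZ 5 embryo genes were lower, a count that was 1 without ABZ replicate 2, ABZ replicate 3 or DMSO replicate 3 and 2 or 3 without 9 other single libraries. The all-gene share lower under ABZ was 0.606%. Embryo genes had low levels, the 10 summing to 2.02 to 3.39 CPM in ABZ and 4.82 to 10.4 CPM in DMSO. Under TBZ 1 embryo gene was higher and 1 hypodermis marker lower, the second lost without TBZ replicate 3 or 4. Of the 6 yolk genes 0 were called against DMSO by edgeR in any of the 5 drugs, and DESeq2 called 1 lower under FBZ and 1 higher under OxBZ; fits of FBZ and DMSO libraries alone called 2 lower. Without TBZ replicate 2, 3 yolk genes were lower under TBZ. Of the neuron markers, 2 were higher under ABZ (0 without ABZ replicate 2 or 3 or DMSO replicate 2 or 3) and 2 under MBZ (0 or 1 without most single libraries), and in the fit to all libraries edgeR called no marker of these lists under ABZ, MBZ or TBZ beyond those given here.

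The identifiers are WBGene00001609 for glp-1 on chromosome III, WBGene00001595 for gld-1, WBGene00001596 for gld-2 and WBGene00001598 for glh-1 on chromosome I, WBGene00003992 for pgl-1 on chromosome IV and WBGene00003994 for pgl-3 on chromosome V. On chromosome II they are WBGene00001597 for gld-3, WBGene00003785 for nos-3, WBGene00001401 for fbf-1 and WBGene00001402 for fbf-2. Of the 10 genes, 4 overlap a gene on the opposite strand, and the sources used here do not give the strand setting of the counting. The overlapping genes ZK507.1 (at glp-1), klu-2 (at gld-2), Y53C12B.7 (at nos-3) and H12I13.6 (at fbf-1) had 0.877%, 2.96%, 1.72% and 0.642% of the counts of their partners.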

How the data were processed

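The deposited table holds raw read counts per gene for 18 libraries of total RNA, sequenced as read pairs per the labels' protocols; per the submitters' processing notes the tools were Subread 1.4.6 and featureCounts. The sources used here do not give the genome build, annotation or strand setting, so no coordinates are printed. Of 20395 identifiers, 19628 had a symbol in Ensembl release 115, which also gave exon lengths. No libraries were identical: any 2 differed at 90.4% of genes or more.

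Counts were fitted in R 4.3.3 with edgeR 4.0.16 (quasi-likelihood, robust; TMM; filterByExpr with a minimum count of 10; 17484 genes kept) in 1 model of 6 group means with 12 residual degrees of freedom. SE is the log2 change divided by the square root of F. DESeq2 1.42.0 was an alternative. The fit was tested on simulated counts. The labels call the libraries biological replicates but do not say what a number marks. Same-numbered ABZ and DMSO libraries deviated together (correlations 0.51 to 0.78), so their numbers were taken to pair them. No other 2 groups with 3 shared numbers had every correlation over 0.1. These correlations ran from -0.08 to 0.12 for FBZ with DMSO and from -0.41 to 0.3 for OxBZ with DMSO. No label names a batch, so for FBZ and OxBZ the drug and a separate set of cultures cannot be told apart.

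The 10 genes and all lists were chosen with earlier results of these data known. From each list, up to 2 called genes each way with the largest change and a mean of at least 1 CPM in either group could be named for each drug, and for each of the 10 genes its most correlated gene; other named genes are marked. The list counts and named list genes under other settings were added after the data were seen.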

Additional observations from a re-analysis of the deposited data

How the results depend on the processing

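The alternatives were other scalings, no filter, DESeq2, a replicate block, fits of a drug with DMSO alone, and fits without 1 library or without both number-2 libraries of ABZ and DMSO. No called change of the 10 genes turned its direction. Under FBZ the count of genes lower was 10; it was 5 with library totals, 6 without both number-2 libraries and 5 to 10 when 1 library was left out. Under OxBZ the count higher was 1; it was 0 with upper quartile scaling, 2 with library totals, 4 with a replicate block over all libraries, 0 with OxBZ and DMSO libraries alone, 0 with the replicate block in those, and 0 to 2 when 1 library was left out. The OxBZ count lower was 0; it was 1 with upper quartile scaling (fbf-1) and 0 to 1 when 1 library was left out. The MBZ count lower was 0; it was 1 with DESeq2 and 0 to 4 when 1 library was left out. The TBZ count lower was 0; it was 2 with DESeq2's size factors in edgeR, 2 with upper quartile scaling, 2 with DESeq2 and 0 to 2 when 1 library was left out. The cause of these moves was not tested. For ABZ, whose numbers pair with DMSO, the paired fit called 0 of the 10 genes, and over all genes 317 higher and 239 lower, against 279 and 106; it changed no other call of the 10 genes under ABZ. Over all genes, library totals moved the median log2 change to 0.17 under FBZ, 0.18 under TBZ and 0.11 under MBZ, and upper quartile scaling to -0.12 under OxBZ; relative to that, the FBZ median of the 10 genes, -0.28, was still lower. Library totals gave 5339 genes higher and 2761 lower under FBZ (65.9% of calls higher, against 47%), 1647 and 355 under TBZ (82.3%, against 49.1%) and 6119 and 3251 for FBZ against OxBZ (65.3%, against 49.2%). Upper quartile scaling gave 2384 and 4287 under OxBZ (35.7%, against 49.8%), 256 and 153 under ABZ (62.6%, against 72.5%) and 213 and 109 under MBZ (66.1%, against 84.2%). Over the alternatives the all-gene counts higher and lower ranged from 2808 to 5339 and 2705 to 5100 under FBZ, 1075 to 4205 and 947 to 4395 under OxBZ, 26 to 471 and 1 to 269 under ABZ, 16 to 481 and 0 to 804 under MBZ, and 0 to 1647 and 0 to 1126 under TBZ. The 10 genes had 1520 counts or more in each library, with 3 libraries in each group.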
